A study of Mus musculus with 2 samples.

Results

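The Ret and Gdnf family genes are the 9 genes of one growth factor system: the receptor gene Ret, the ligand genes Gdnf, Nrtn, Artn and Pspn, and the co-receptor genes Gfra1, Gfra2, Gfra3 and Gfra4. They were taken by gene symbol from the 38926 genes listed in each library, and all 9 were found. The RNA was from pleuroperitoneal folds (PPFs), dissected from wild-type mouse embryos of a mixed 129s/SvlmJ-C57/BL6J strain at embryonic day 12.5, in 1 group of 2 libraries, replicates 1 and 2. The PPFs are paired embryonic folds that give rise to connective tissue of the diaphragm. Each library pooled 2 dissected PPF pairs. The labels do not say whether the pairs shared a litter, so the spread between the libraries may be partly technical, and every comparison is made within this 1 group.

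As background, the ligands of the Gdnf family are dimeric proteins that do not bind Ret alone. Each first binds a co-receptor of the Gfra family, which is held at the cell surface by a lipid anchor, and the pair then activates Ret, a receptor tyrosine kinase that signals through Ras-MAPK, PI3-kinase and phospholipase C gamma. Gdnf pairs preferentially with Gfra1, Nrtn with Gfra2, Artn with Gfra3 and Pspn with Gfra4. In embryos the system is best known from the ureteric bud of the kidney, from neural crest cells that form enteric, sympathetic and parasympathetic neurons, and from motor neurons. Gfra1 can also pass a Gdnf signal through the adhesion molecule Ncam1 in cells without Ret.

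The libraries held 26370253 counts in replicate 1 and 23255957 in replicate 2. Markers of the tissues that make up the folds were present: 8 of 8 fibroblast and mesenchyme genes, 8 of 8 mesothelial genes and 9 of 9 skeletal muscle genes had at least 1 TPM in both libraries. TPM divides each count by the length of the gene and brings every library to a common sum, which allows levels of different genes to be compared. Levels are given as each library's TPM and as mean ± SD with n = 2. The 9 genes were chosen by symbol with their TPM levels and their ratios between the libraries already in view, so those values are a description and no test is given for them. A single library stands on each side of every ratio between the libraries.

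Summed over each class, the co-receptor genes stood far above the receptor and the ligands, although Gfra3 was no higher than the ligand Pspn in replicate 1. The co-receptors summed to 68.4 TPM in replicate 1 and 74.0 TPM in replicate 2, the ligands to 8.19 and 6.16 TPM, and Ret alone to 0.450 and 1.82 TPM. Summed co-receptor level was thus 152 times that of Ret in replicate 1 and 40.7 times in replicate 2. All 9 genes had counts in both libraries, but 6 of 9 had at least 1 TPM in both, beside 44.4% of all listed genes and 63.8% of protein-coding genes. The 3 with at least 10 TPM in both were Gfra1, Gfra2 and Gfra4. Among the 9 genes the median level was 3.03 TPM, against 7.95 TPM over all protein-coding genes. In bulk tissue, a gene used strongly by few cells and one used weakly by many cannot be told apart.

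**Figure D1:**
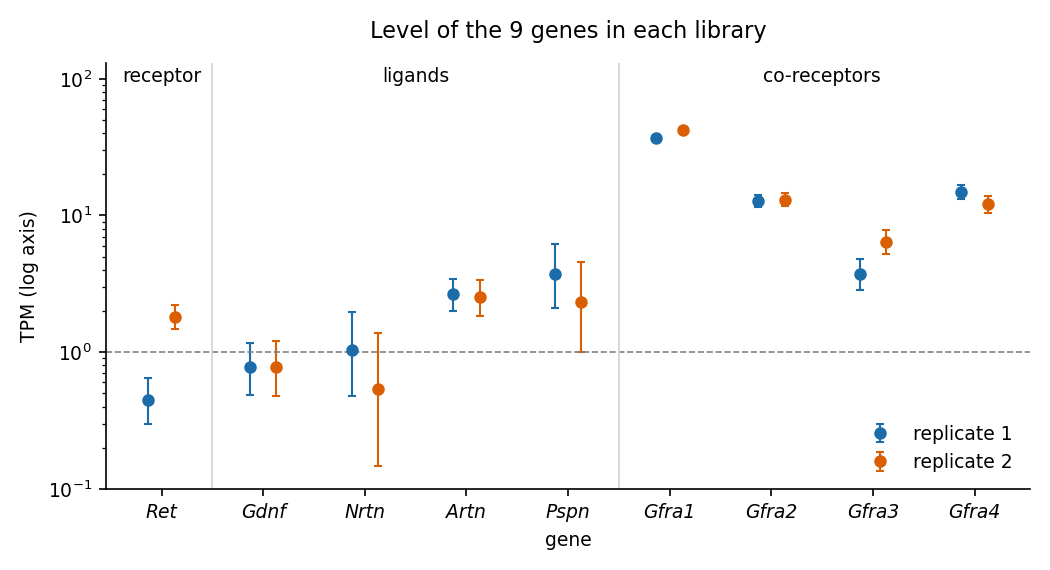
TPM of each of the 9 genes (log axis) in replicate 1 and replicate 2, with 95% exact Poisson intervals that cover counting error only and a dashed line at 1 TPM. The Gfra1 points, 37.0 and 42.5 TPM, lie above all others, and the intervals of the Ret points, 0.450 and 1.82 TPM, do not overlap.

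Ret (chromosome 6, 118151748 to 118197744 in GRCm38, minus strand) had the largest ratio between the libraries among the 9 genes. It had 28 counts in replicate 1 and 97 in replicate 2, or 0.450 TPM (95% interval 0.299 to 0.650) and 1.82 TPM (1.47 to 2.22). Replicate 2 was high and replicate 1 low, and the counting intervals did not overlap. In replicate 1 Ret was the lowest of the 9 genes, while in replicate 2 it stood above Gdnf and Nrtn. Its mean of 1.13 ± 0.967 TPM therefore describes neither library well. None of its 6763 annotated exon bases is shared with another gene. The deposited length of Ret was 7341 bases, so not every counted base was covered by this check.

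The ligand genes were all low. Gdnf, the ligand required for outgrowth of the ureteric bud and for enteric neurons (chromosome 15, 7811011 to 7837575, plus strand), had 23 and 20 counts in replicates 1 and 2, or 0.773 and 0.784 TPM. The libraries were nearly equal and both under 1 TPM, which made Gdnf the one gene of the 9 below that level in both. Nrtn, a ligand for parasympathetic and enteric neurons (chromosome 17, 56751325 to 56757530, minus strand), had 9 and 4 counts, or 1.04 TPM (0.474 to 1.97) and 0.538 TPM (0.147 to 1.38). Replicate 1 was higher, but the counting intervals overlapped widely.

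Artn, a ligand for sympathetic and sensory neurons (chromosome 4, 117926162 to 117929763, minus strand), had 54 and 44 counts, or 2.65 and 2.52 TPM. It was the ligand with the most counts, and its libraries lay close together. Pspn, the ligand that prefers Gfra4 (chromosome 17, 56999457 to 57000018, minus strand), had 15 and 8 counts, or 3.73 TPM (2.09 to 6.15) and 2.32 TPM (1.00 to 4.57). Its mean of 3.03 ± 0.996 TPM was the highest of the ligands per length, yet rested on 23 counts over a gene of 474 bases. The opposite-strand gene Alkbh7 ends 134 bases from Pspn and had 30.9 and 30.2 TPM. The part of reads from Alkbh7 in the Pspn count was not tested. Per library, the Pspn and Artn values overlapped, and so did those of Nrtn with both Gdnf and Ret, so these genes cannot be ordered beyond the spread of the libraries.

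Gfra1, the co-receptor for Gdnf (chromosome 19, 58235604 to 58455398, minus strand), was the most abundant gene of the system. It had 1720 and 1690 counts, or 37.0 TPM (35.3 to 38.8) and 42.5 TPM (40.5 to 44.5), with a mean of 39.7 ± 3.84 TPM. Of all protein-coding genes, 75.9% had a lower mean level. Gfra1 made up 54.1% of the summed co-receptor TPM in replicate 1 and 57.4% in replicate 2. The antisense gene Gm16277 shares 416 of the exon bases of Gfra1 (7.60%) and had 203 and 199 counts. Without a known strand setting, reads of the shared bases cannot be assigned to one of the genes, but Gfra1 had many more counts than Gm16277 in both libraries.

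Gfra4, the co-receptor for Pspn (chromosome 2, 131039632 to 131043088, minus strand), had 275 and 190 counts, or 15.0 TPM (13.3 to 16.8) and 12.1 TPM (10.4 to 13.9). Of its annotated exon bases, 28.3% (613) belong only to transcripts of the gene that are not annotated as protein-coding, so counts on Gfra4 need not all come from messages that encode the co-receptor. The microRNA gene Mir6973b, which is not among the listed genes, shares 80 exon bases (3.70%) with Gfra4. Gfra2, the co-receptor for Nrtn (chromosome 14, 70890130 to 70979838, plus strand), had 373 and 328 counts, or 12.7 and 13.0 TPM. The Gfra4 and Gfra2 values overlapped: Gfra4 was the higher in replicate 1 and Gfra2 in replicate 2.

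Gfra3, the co-receptor for Artn, found on sympathetic and sensory neurons and their precursors (chromosome 18, minus strand), was the lowest co-receptor. It had 63 and 93 counts, or 3.73 TPM (2.86 to 4.77) in replicate 1 and 6.42 TPM (5.18 to 7.87) in replicate 2. Replicate 2 was the higher, and the counting intervals did not overlap. Both Gfra3 values lay below those of Gfra2, and the range of Gfra3 overlapped that of Pspn.

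Each co-receptor exceeded its preferred ligand in both libraries, by amounts that differed widely among the pairs. The TPM of Gfra1 was 47.9 and 54.1 times that of Gdnf in replicates 1 and 2. The TPM of Gfra2 was 12.2 and 24.2 times that of Nrtn, whose few counts make this ratio imprecise. The TPM of Gfra4 was 4.01 and 5.20 times that of Pspn. The Artn pair was the most even, with Gfra3 at 1.41 and 2.55 times the ligand. Gfra1 also exceeded Ret, at 82.3 times its TPM in replicate 1 and 23.4 times in replicate 2.

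The start sites of a low ligand gene, Gdnf, and of the most abundant member, Gfra1, are shown because they bear on what was counted. RefSeq (GRCm38.p6) promoter windows matched 6 of the 9 genes. The 250 bases before a RefSeq start of Gdnf, whose start at chromosome 15, 7810048 lies 963 bases upstream of the counted gene, and those before the start of Gfra1, which coincides with the counted gene, read 5′ to 3′ on the gene strand as follows. Capitals mark TATAAA in Gdnf and CG dinucleotides in Gfra1.
Gdnf, chr15:7809798-7810047, plus strand: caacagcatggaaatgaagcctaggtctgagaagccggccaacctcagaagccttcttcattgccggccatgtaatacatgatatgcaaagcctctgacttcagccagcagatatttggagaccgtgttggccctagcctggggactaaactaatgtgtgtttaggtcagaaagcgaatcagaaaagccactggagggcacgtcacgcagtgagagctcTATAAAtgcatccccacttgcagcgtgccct
Gfra1, chr19:58455399-58455648, minus strand: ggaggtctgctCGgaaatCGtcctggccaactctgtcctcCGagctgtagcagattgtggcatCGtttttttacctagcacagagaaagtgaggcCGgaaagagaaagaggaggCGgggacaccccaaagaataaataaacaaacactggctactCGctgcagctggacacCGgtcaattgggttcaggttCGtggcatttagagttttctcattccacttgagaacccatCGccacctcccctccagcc
The Gdnf window holds TATAAA with its first base 31 bases before the RefSeq start. TATAAA occurs on the gene strand in 7.59% and on either strand in 12.4% of all 32851 windows of this length, and it was found on neither strand in the windows of the other 5 matched genes or at a second, internal Gdnf start. The Gfra1 window holds 10 CG dinucleotides and the Gdnf window 7, with a median of 6 over all windows. Exon bases between the upstream Gdnf start and the counted start lay outside the deposited gene. Reads lying wholly on those bases did not enter the Gdnf count.

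Between the libraries, Ret stood 3.89-fold higher in replicate 2, a log2 ratio of 1.96 (95% interval 1.36 to 2.64). It was the 1 gene of the 9 past 2-fold in either direction. Of all 19433 genes that reached 10 counts in total, 4.20% were past 2-fold, with 2.34% higher and 1.86% lower in replicate 2. The share was larger at low counts: it was 11.5% (6.41% higher in replicate 2) among the 6729 of these genes with fewer than 200 counts, 6 of the 9 members included, and 0.315% among genes with 200 or more. A count of 1 in 9 is near the share among genes with few counts, and nothing is read from it. At 1.5-fold 4 of the 9 genes (Ret, Gfra3, Nrtn and Pspn) were past the threshold, beside 11.2% of all genes with at least 10 counts and 29.8% of those under 200, and for Nrtn and Pspn the counting interval included equal levels. Without replicate 1 or replicate 2 no ratio exists, so this difference has no replicate check.

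The other 8 genes differed less between the libraries. Gfra3 was 1.67-fold higher in replicate 2 (log2 ratio 0.74, 95% interval 0.27 to 1.23). Gfra1 was 1.12-fold higher (0.16, 0.061 to 0.26), a small difference resolved by its many counts. Gfra4 was 1.27-fold lower in replicate 2 (-0.35, -0.62 to -0.077). Together with Ret, these made 4 of the 9 genes whose counting interval excluded equal levels, beside 27.2% of all genes with at least 10 counts. These intervals leave out the spread between dissections.

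For the remaining 5 genes the interval included equal levels. Gfra2, with a log2 ratio of -0.00086 (-0.22 to 0.22), was the most precisely measured of these. Gdnf had a log2 ratio of -0.013 (-0.96 to 0.91) and Artn one of -0.11 (-0.72 to 0.49). Pspn (-0.68, -2.17 to 0.61) and Nrtn (-0.89, -3.14 to 0.86) had the widest intervals, and at these depths a 2-fold lower level in replicate 2 could not have been told from no difference. The median ratio of the 9 genes was -0.013, against -0.014 over all genes with at least 10 counts.

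**Figure D2:**
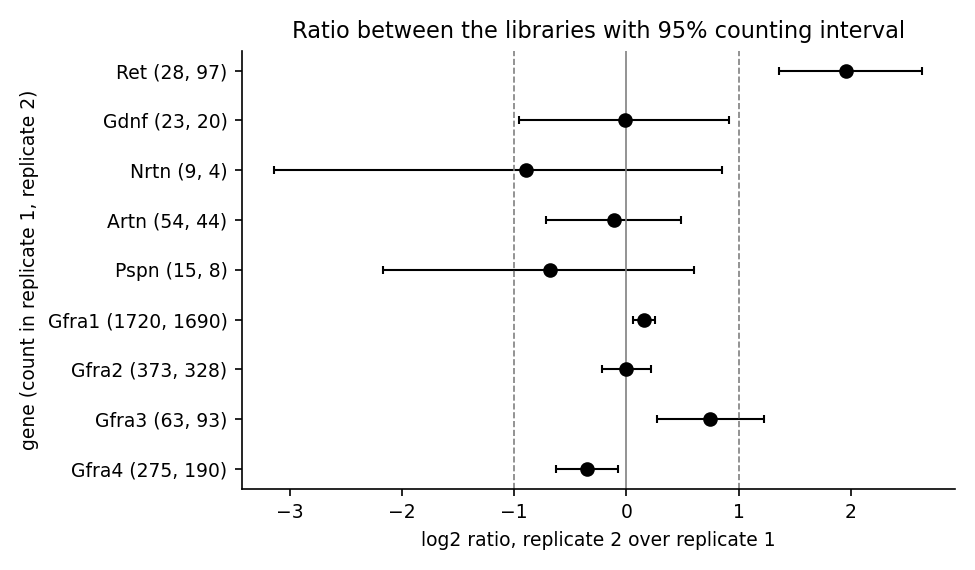
Log2 ratio of replicate 2 over replicate 1 for each of the 9 genes, with 95% counting intervals, counts beside the names, and dashed lines at 2-fold. Ret lies at 1.96 with its whole interval above 1, Gfra3 lies at 0.74, and the intervals of Gdnf, Nrtn, Artn, Pspn and Gfra2 span 0.

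Markers of 3 cell populations in which Ret is known to act were compared between the libraries. Of the 10 sympathetic and enteric neuroblast genes with at least 10 counts, 5 were 2-fold or more higher in replicate 2 and none was lower, with a median log2 ratio of 1.12. Over all genes with at least 10 counts 2.34% were 2-fold or more higher, and 6.41% of those under 200 counts. The summed level of all 11 genes on this list was 65.5 TPM in replicate 1 and 105 TPM in replicate 2, and none was at 0. Dbh, which encodes the enzyme that makes noradrenaline, had 40 and 143 counts, or 1.75 and 7.31 TPM, a log2 ratio of 2.01. It was low in replicate 1 and high in replicate 2, as Ret was.

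Other genes of that list were also higher in replicate 2. Elavl3, a neuronal RNA-binding protein gene, had the largest log2 ratio, 2.54, from 9 and 48 counts. Th, the enzyme gene of the first step to noradrenaline, had a log2 ratio of 1.35, the neuronal tubulin gene Tubb3 of 1.28 and Stmn2 of 1.31. Phox2a stood at 0.96 and Prph, a peripheral neurofilament gene, at 0.78, near the 0.74 of Gfra3. By contrast Gap43, the highest gene of the list at 28.8 ± 6.21 TPM, had a log2 ratio of 0.40 (0.18 to 0.63). Hand2, which mesenchyme also uses, had a log2 ratio of 0.18 and Elavl4 of 0.17, with intervals that included equal levels. The part of neuroblast RNA in the ratios of Ret and Gfra3 was not tested.

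Neural crest and Schwann precursor genes lay near equal levels. All 10 had at least 10 counts, none was past 2-fold in either direction, and the median log2 ratio was 0.17. Their summed level was 274 TPM in replicate 1 and 317 TPM in replicate 2. The 3 highest genes were slightly higher in replicate 2, with intervals that excluded equal levels. These were Ngfr (log2 ratio 0.12, 0.043 to 0.19), Erbb3 (0.19, 0.12 to 0.26) and Ednrb (0.27, 0.18 to 0.36). No interval of the list lay below equal levels. Sox10, a regulator of crest cells and of Ret, had 484 and 476 counts, or 21.03 and 24.1 TPM, a log2 ratio of 0.16. The TPM of Ret was 0.0214 times that of Sox10 in replicate 1 and 0.0753 times in replicate 2.

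Genes of the nephric duct and ureteric bud were mostly higher in replicate 1. Of the 10, all with at least 10 counts, 5 were 2-fold or more lower in replicate 2 and 1 was higher, with a median log2 ratio of -0.88, also with Cdh16 at its bound. Over all genes with at least 10 counts 1.86% were 2-fold or more lower. Among those under 200 counts 11.5% were past 2-fold in either direction. The summed level of the 10 genes was 74.1 TPM in replicate 1 and 53.0 TPM in replicate 2. Most of it came from Wnt11 (46.3 and 39.8 TPM) and Emx2 (20.3 and 8.20 TPM, log2 ratio -1.35). The intervals of Wnt9b (log2 ratio -0.052, -0.94 to 0.82) and Calb1 (-0.41, -1.10 to 0.25) included equal levels. Pax8, a nephric regulator, had 69 and 3 counts, or 1.34 and 0.0680 TPM, a log2 ratio of -4.13 (-6.65 to -2.73). Lhx1 had 23 and 2 counts and Pax2 13 and 2. The cadherin gene Cdh16, a kidney marker, went from 20 counts to none, which at a floor of 3 counts per library is at least 5.87-fold lower in replicate 2. The exception was Tfap2b, a regulator shared with sympathetic neuroblasts, which had 3 and 35 counts. Gata3, which is also used by sympathetic cells, was nearly equal at 2.49 and 2.42 TPM. Ret was lower in replicate 1, in which most of these genes were higher. The part of nephric RNA in the ratio of Ret was not tested.

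**Figure D3:**
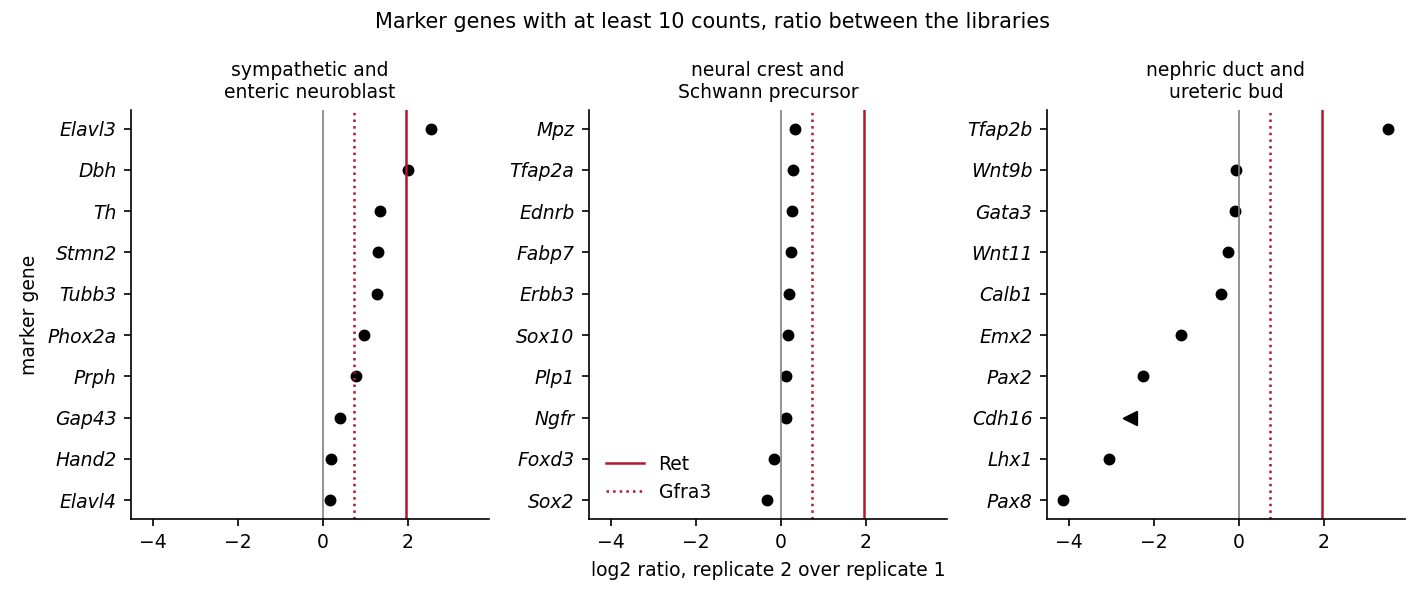
Log2 ratio of replicate 2 over replicate 1 for marker genes with at least 10 counts, in 3 lists, with the ratios of Ret (solid red line, 1.96) and Gfra3 (dotted red line, 0.74). The triangle is Cdh16, which had no count in replicate 2 and is drawn at the bound from 3 counts. Neuroblast genes reach 2.54, crest and Schwann genes stay near 0, and most nephric genes lie below 0.

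Motor neurons, another known site of Ret, had few markers with counts. Of 6 genes found, which summed to 8.23 TPM in replicate 1 and 12.8 TPM in replicate 2, 3 had at least 10 counts. The choline transporter gene Slc5a7 had 85 and 178 counts, a log2 ratio of 1.25 (0.87 to 1.64), and Isl1, which sympathetic neurons also use, 187 and 215 counts, a log2 ratio of 0.39 (0.096 to 0.68). Both were higher in replicate 2, as Ret was, while Isl2, with 12 and 5 counts, was lower, with an interval of -2.94 to 0.53 that included equal levels. The part of motor neuron RNA in the ratio of Ret was not tested. Mnx1 had no count in either library, which allows up to 0.154 and 0.180 TPM. Hepatoblast genes were higher in the same library as Ret: 6 of 6 were 2-fold or more higher in replicate 2, beside 2.34% of all genes with at least 10 counts. For 1 of these, Serpina1a with 5 and 11 counts, the interval of -0.32 to 3.20 included equal levels. The summed level of the 6 genes was 109 TPM in replicate 1 and 285 TPM in replicate 2, and Afp had a log2 ratio of 1.32. In contrast, none of the 9 skeletal muscle, 8 fibroblast and 8 mesothelial genes was past 2-fold, with median log2 ratios of 0.030, -0.025 and -0.014. The part of liver RNA in the ratio of Ret was not tested.

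The genes through which Ret signals were present well above the level of Ret. Of 23 adaptor and kinase genes 22 had at least 1 TPM in both libraries, beside 63.8% of all protein-coding genes. Their median was 43.6 TPM over the 23 genes. The phosphatase gene Ptpn11 was highest at 111 ± 4.74 TPM, followed by the Ras gene Nras at 108 ± 1.55 TPM and Mapk3, a terminal kinase of the Ras-MAPK cascade, at 108 ± 1.75 TPM. The exception was Dok6, an adaptor that binds Ret, with 14 and 11 counts, or 0.321 and 0.294 TPM. None of the 23 was past 2-fold between the libraries, and the largest ratio was that of the adaptor gene Dok5, -0.40. Most of these genes serve many receptors.

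Negative regulators and targets were likewise present. Of 9 negative regulator genes 8 had at least 1 TPM in both libraries, led by the imprinted adaptor gene Grb10 at 924 ± 37.8 TPM, Ptprf at 102 ± 1.13 TPM and the MAPK phosphatase gene Dusp6 at 101 ± 6.57 TPM. Cblc, a ubiquitin ligase gene of epithelia, had 4 and 6 counts. All 10 genes described as Ret targets in the ureteric bud had at least 1 TPM in both, from Mmp14 at 474 ± 0.925 TPM, which fibroblasts express, to the transcription factor gene Myb at 3.54 ± 0.229 TPM. None of the 9 or the 10 was past 2-fold between the libraries, with median log2 ratios of 0.094 and -0.0083, and most had 200 or more counts, where 0.315% of all genes were past 2-fold. The largest in size among the targets was that of Wnt11, -0.26, from 46.3 and 39.8 TPM. Dusp6 and Spry1 stand in both lists.

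Receptors that bind these ligands without Ret were abundant. Ncam1, the adhesion molecule that can pair with Gfra1, had 93.3 and 107 TPM, and Sdc3, a heparan sulfate proteoglycan that binds Gdnf, 127 and 127 TPM. By contrast Gfral, the distant relative of the Gfra genes that links Gdf15 to Ret, had 0 counts in replicate 1, which allows up to 0.170 TPM, and 1 in replicate 2. Its ligand gene Gdf15 had 4 and 3 counts, or 0.255 and 0.223 TPM.

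**Figure D4:**
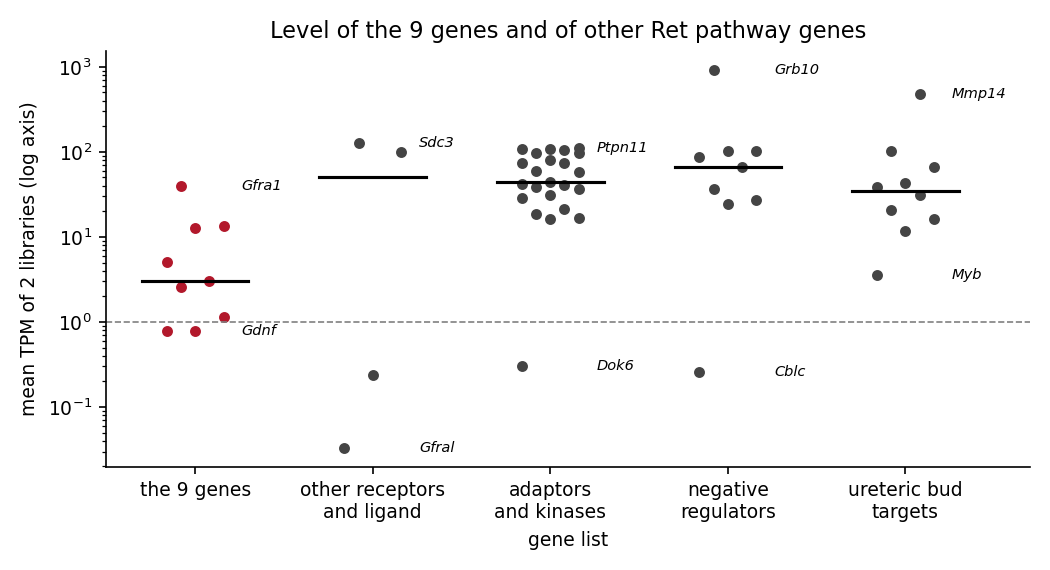
Mean TPM over the 2 libraries (log axis) of the 9 genes and of 4 lists of Ret pathway genes, with each list's median as a bar, its highest and lowest gene named and a dashed line at 1 TPM. The median is 3.03 TPM for the 9 genes and 43.6 TPM for the adaptors and kinases.

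Genes known to control Gdnf in kidney mesenchyme were partly present, and Gdnf was low. Of 19 such genes 14 had at least 1 TPM in both libraries, beside 63.8% of all protein-coding genes. The highest were Osr1 at 130 ± 8.74 TPM, the matrix gene Npnt at 84.7 ± 5.97 TPM and Bmp4 at 57.3 ± 3.63 TPM. Hoxc11 and Hoxd11, posterior genes of the kidney mesenchyme, had 0 counts in both libraries, and Pax2 had 0.284 and 0.0509 TPM. Of 10 genes that regulate Ret, 6 had at least 1 TPM in both. Both counts are near the share of protein-coding genes, and nothing is read from them. Among regulators of Ret, the retinoic acid receptor genes Rarb, at 69.8 ± 1.17 TPM, and Rara, at 58.3 ± 1.16 TPM, were highest, followed by Sox10 at 22.6 ± 2.20 TPM. Of the 9 with at least 10 counts, 3 were 2-fold or more lower in replicate 2 (Pax2, Pax8 and Lhx1). All 3 also stand in the nephric list and had fewer than 200 counts. Over all genes with at least 10 counts 1.86% were 2-fold or more lower, and among those under 200 counts 11.5% were past 2-fold in either direction. Nkx2-1, a regulator of foregut derivatives, had 0 counts in both.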

How the data were processed

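RNA from 2 libraries of 1 group was analysed. Raw counts per gene and TPM values were deposited by the authors, who worked with featureCounts, STAR 2.4.0a and SAMtools 1.3 and gave mm9 as the build, per the submitters' processing notes. The sources used here do not give the strand setting of the counting. The deposited TPM equalled count per base of the deposited gene length, scaled to a common sum. Of 35656 symbols shared with GENCODE M21 (GRCm38), 99.85% overlapped their GRCm38 position and 56.34% were identical, so positions are given as GRCm38.

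Ratios of replicate 2 to replicate 1 were computed from counts plus 0.5, scaled with TMM factors (edgeR 4.0.16). Their 95% intervals are exact Clopper-Pearson intervals, those of single counts exact Poisson intervals, and both cover counting error only. The labels name no molecular identifiers, so reads need not be independent molecules. No p-value is given, because there is 1 group and the values chose the members. The intervals were tested on simulated counts that held counting error only, so this test does not cover the spread between dissections. Alternatives were scaling (library totals, DESeq2 1.42.0 size factors, deposited TPM), added counts, minimum counts, thresholds and single libraries. The 9 genes and the lists were chosen with earlier results of these data known. The naming rule took, per list, the 3 highest and the lowest gene by mean TPM, the largest ratio and genes without counts. Some genes of the lists are not reported here. Dbh, Phox2a, Th, Tubb3, Prph, Elavl4, Lhx1, Wnt9b, Calb1 and Tfap2b were named after their values were seen, as were the genes given by ratio under the additional observations.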

Additional observations from a re-analysis of the deposited data

How the results depend on the processing

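The log2 ratios of the 9 genes stayed inside their counting intervals under all 45 alternatives of scaling and added counts. With a threshold of 1.5-fold, 4 of the 9 genes were past it, all with fewer than 200 counts. The share was 11.2% of all genes with at least 10 counts and 29.8% of those under 200. For Nrtn and Pspn, 2 of the 4, the counting interval included equal levels. At 5 TPM in both libraries 3 genes were counted as expressed in place of 6. Leaving out features under 200 bases from the TPM sum raised the summed level of the 9 genes from 79.5 to 88.7 TPM. When 1 library was left out, 3 to 4 of the 9 genes kept their place in the order of levels. The ratios could not be computed without either replicate. No paired analysis was possible because there is 1 group. Depth limits Nrtn, Pspn and Gdnf most, with 13, 23 and 43 counts over both libraries.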

Other observations

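Among the 14093 genes that reached 100 counts in total, Ret had the 8th largest ratio of replicate 2 to replicate 1. Next above it stood Dbh at a log2 ratio of 2.01 and the pyruvate kinase gene Pklr, used by liver and erythroid cells, also at 2.01, and next below it the lipoprotein gene Apob at 1.92, against 1.96 for Ret. The largest ratios belonged to Rps3a3 (17 and 1238 counts) and Rpsa-ps10 (18 and 952 counts), copies of ribosomal protein genes whose reads may be shared with the parent genes. The others above Ret were Neil2 at 2.23, Hmgb2 at 2.10 and 2610507I01Rik at 2.06. The place of Ret depends on the limit of 100 counts, since Elavl3, with 9 and 48 counts, had a larger log2 ratio, 2.54. The ratio of Ret was in view when the 9 genes were chosen, so its place is a description only.

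By distance over log2(TPM + 1) in the 2 libraries, the protein-coding genes most like Ret were 9330161L09Rik (0.472 and 1.79 TPM), Pabpc5 (0.484 and 1.75 TPM) and Ifi44l (0.485 and 1.70 TPM). Those most like Gfra1 were Fbxl7 (37.1 and 42.3 TPM), the activin receptor gene Acvr2a (37.0 and 42.7 TPM) and Med13l (37.0 and 42.9 TPM). With 2 libraries this likeness is no more than a like level and ratio, and the 3 genes nearest to Ret had between 2 and 31 counts per library.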
